A study of Mus musculus with 2 samples.

Results

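DNA replication and S-phase genes were compared between macrophages of calpain-6-deficient mice (Capn6-Ko) and of calpain-6 wild-type mice (Capn6-Wt). The 54 members are genes of origin licensing, helicase activation, the replication fork, nucleotide synthesis, the E2F factors with cyclin E, chromatin assembly and replication-linked repair. They were chosen as a list of gene names, with earlier results of these data known. On the array they were found as the non-control probes whose RefSeq accession belongs to a member gene. All 54 were found, with 61 probes, among 20660 genes with a RefSeq probe, and 50 were measured, meaning well above background on both arrays.

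The cells were bone marrow-derived macrophages, cells that marrow precursors give rise to under the growth factor M-CSF. Femoral marrow of male mice was cultured in 10% serum with 50 ng/mL of M-CSF, and both genotypes also received 10 ng/mL of the inflammatory cytokine TNF-α. Unbound cells were washed away and the remaining cells were not sorted. The age and strain of the mice and the form of the Capn6 allele are not given in the sources used here, and the labels disagree on the culture time, with day 3 in one field and day 4 in another. Cells of 4 mice were pooled, without a statement whether this is the number per genotype. Each genotype was 1 array, so no difference has a replicate check and no test between genotypes was run. Every value describes this pair of RNA pools.

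Before a cell copies its DNA, the origin recognition complex, Cdc6 and Cdt1 load the Mcm2-7 helicase onto origins in G1. In S phase Cdc45 and the GINS complex switch the helicase on, and polymerases, clamp and clamp loader follow it. Most of these genes are transcribed in bursts at the G1/S border under E2F factors, and M-CSF is the signal that keeps marrow macrophages dividing in culture. A bulk level of such a gene therefore depends on the share of cells in S phase as well as on the RNA per cell, and these cannot be told apart here.

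The arrays were alike in depth. The share of the 59305 non-control spots that stood well above background was 52.8% for Capn6-Ko and 51.7% for Capn6-Wt, and processed signals had a 75th percentile of 372 for Capn6-Ko and 377 for Capn6-Wt. Of all genes with a RefSeq probe, 12875 were measured. The Capn6 probe was not well above background on either array (8.65 in Capn6-Ko, 3.93 in Capn6-Wt), so it does not check the labels. Of the macrophage markers, 12 of 14 were measured, all but Cd163 and Cd68, which has no RefSeq-matched probe here, and their summed signal was 398985 in Capn6-Ko and 374673 in Capn6-Wt. Stromal fibroblast markers were present as well. Of these, 19 of 20 were measured, all but Lum, and 17 of the 19 were lower in Capn6-Ko, with a summed signal of 47153 in Capn6-Ko and 68522 in Capn6-Wt. Of the hematopoietic progenitor markers 6 of 10 were measured, with a summed signal of 1734 in Capn6-Ko and 1612 in Capn6-Wt, while Flt3, Gata2, Myb and Gfi1 were not. Median log2 differences were 0.12 over the 12 macrophage markers (8 higher in Capn6-Ko), 0.11 over the 6 progenitor markers and -0.49 over the 19 stromal markers. They were 0.11 over 10 of 10 megakaryocyte markers and -0.057 over 10 of 11 neutrophil markers. Erythroid markers (5 of 10 measured) had a median of -0.26, B cell markers (5 of 9) -0.19, and T and NK cell markers (5 of 10) -0.024. The part of these cell mixtures in the values below was not tested.

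The measured members were mostly a little higher in the Capn6-Ko pool. Among the 50 measured members, 40 had the higher level in Capn6-Ko and 10 had the lower one there, where 47.8% of all measured genes were higher. Their median log2 difference, Capn6-Ko minus Capn6-Wt, was 0.063, beside -0.0056 for all 12875 genes. The middle of the list ran from 0.014 at the first quartile to 0.18 at the third, so that the typical shift was well under 1.25-fold. At that size 4 members were higher, namely Fanci, E2f8, Tyms and Cdc6, against a background of 2.64% of all genes, and 0 were lower, against 5.53%. Fanci alone passed 1.5-fold, where the background was 0.334%, and 2-fold, where it was 0.0233%. No member was lower by those sizes, where the backgrounds were 1.26% and 0.0699%.

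Each value carries an SD expected from spot-to-spot spread, estimated from probes printed many times per array and written after ±. It covers printing and scanning, not mice, cultures or RNA preparation. By this measure 10 members lay more than 2 spot SDs above 0, where 5.24% of all genes did, and 1 member (Lig1) lay more than 2 below, where 6.45% did. Another 22 of the 50 were within 1 spot SD of 0. Level and size went together. Among the 29 members above the median level of all genes 23 were higher in Capn6-Ko, where 48.5% of such genes were, and 0 reached 1.25-fold, where 0.684% did. All 4 members past 1.25-fold were among the 21 at or below that level. The spot SD was 0.17 for Fanci and Tyms and 0.18 for Cdc6, but 0.093 for E2f8. With the normexp background correction, which adds an offset of 50 to every signal, Fanci was at 0.74, E2f8 at 0.32, Tyms at 0.18 and Cdc6 at 0.17, so that Fanci was the 1 left past 1.25-fold.

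**Figure D1:**
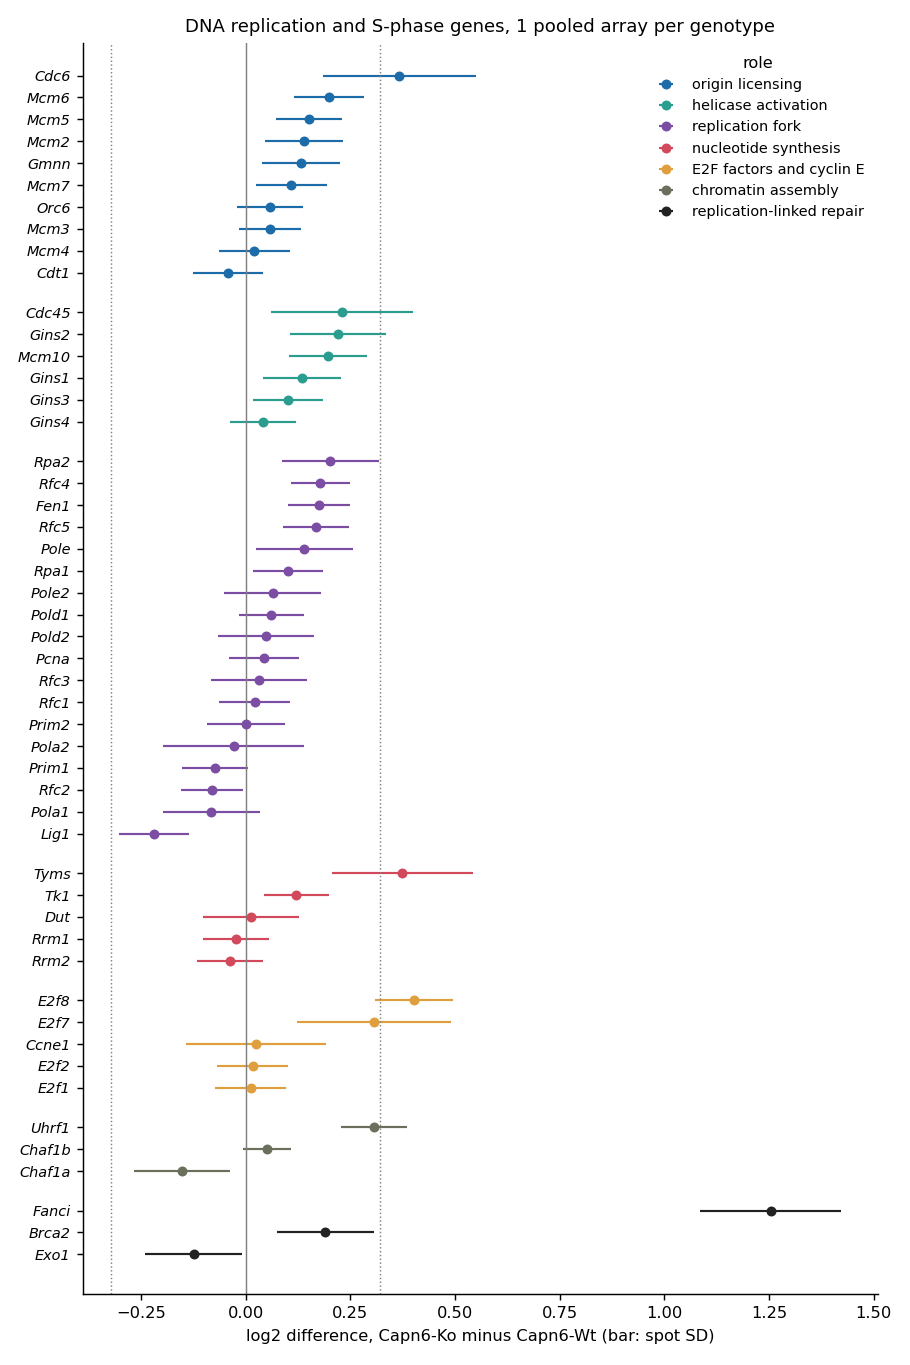
Log2 difference, Capn6-Ko minus Capn6-Wt, of the 50 measured members by role, with the spot SD as the bar and dotted lines at 1.25-fold in either direction. Most points lie a little right of 0, Fanci stands alone at 1.25, and Lig1 is the lowest at -0.22.

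**Figure D2:**
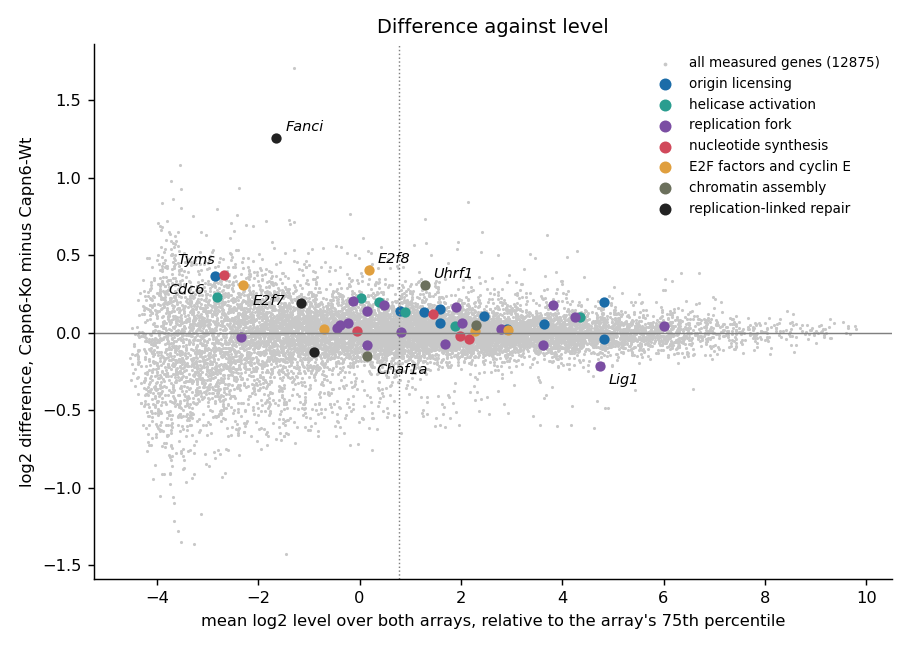
Log2 difference against mean log2 level relative to the array's 75th percentile, for all 12875 measured genes (grey) and the members coloured by role; the dotted line is the median level of all genes. Members left of that line spread wider, and Fanci is the second highest of all genes.

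E2F factors act through short sites near the start of their targets, and promoters are shown for 5 members, picked after values and matches were seen, to show where such letters lie. The windows of Fanci and Tyms, among the highest members, hold none of the letters searched. RefSeq promoter windows of GRCm38.p6, from 250 bases before to 50 after a gene's start, were at hand for 43 of the 54 members, in 50 windows. The E2F letters searched on both strands were TTTCCCGC, TTTGGCGC, TTTCGCGC and TTTGCCGC, and a pair of them can overlap. They were present in 34% of the member windows and in 2.26% of all 32851 windows. The CCAAT box, the letters bound by NF-Y, was in 58% of member windows and 37.4% of all. The letters TTTGAA of the cell cycle homology region were in 14% of member windows and 17.9% of all. The stretches below hold 120 bases upstream of the start each, 5′ to 3′ on the gene's strand, and capitals mark any of these letters on either strand. For Uhrf1 the window is that of the RefSeq start with E2F letters.
Mcm6, chr1:128359716-128359835, minus strand: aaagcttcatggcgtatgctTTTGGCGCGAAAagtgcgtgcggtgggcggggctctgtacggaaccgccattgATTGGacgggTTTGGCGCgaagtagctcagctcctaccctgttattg
Cdc6, chr11:98907993-98908112, plus strand: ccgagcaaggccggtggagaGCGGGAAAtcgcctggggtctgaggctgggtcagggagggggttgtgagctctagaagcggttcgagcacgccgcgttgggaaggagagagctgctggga
E2f7, chr10:110745221-110745340, plus strand: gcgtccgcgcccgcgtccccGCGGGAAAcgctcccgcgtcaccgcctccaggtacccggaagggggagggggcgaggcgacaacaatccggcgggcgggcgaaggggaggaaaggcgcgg
Uhrf1, chr17:56304108-56304227, plus strand: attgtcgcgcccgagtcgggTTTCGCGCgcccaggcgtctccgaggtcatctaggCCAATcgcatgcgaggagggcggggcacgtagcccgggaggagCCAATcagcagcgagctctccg
E2f8, chr7:48881609-48881728, minus strand: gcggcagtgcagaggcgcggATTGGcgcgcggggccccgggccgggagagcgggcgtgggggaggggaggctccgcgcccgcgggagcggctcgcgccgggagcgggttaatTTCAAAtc
In Mcm6 a pair of overlapping E2F matches lies 110 to 99 bases before the start and another match 47 to 40 bases before it. The E2f8 window holds none of the E2F letters but has a CCAAT box and the TTTGAA letters on its other strand.

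Members with and without these letters covered overlapping ranges of difference. Of the 16 measured members with E2F letters in a window, 13 were higher in Capn6-Ko, with values from -0.22 to 0.37 and a median log2 difference of 0.083. Of the 25 members whose windows lack them 20 were higher, with values from -0.15 to 1.25 and a median of 0.059. Over the array, 47.8% of the 464 measured genes with E2F letters were higher in Capn6-Ko and 48.3% of the 9837 without. Their median log2 differences were -0.0069 and -0.0043. All 7 measured members with the TTTGAA letters were higher, as were 26 of 34 without them. Over the array, 50.6% of the 1498 genes with these letters and 47.9% of the 8803 without were higher. For the CCAAT letters, 19 of 24 members with them and 14 of 17 without were higher. The shares over the array were 49.0% of the 4395 genes with them and 47.8% of the 5906 without.

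In origin licensing 9 of the 10 measured genes had the higher level in Capn6-Ko, and the median log2 difference was 0.12. Cdc6, the loading factor for the helicase, was furthest. Its probes had signals of 42.2 and 80.9 in Capn6-Ko, against 29.5 and 71.2 in Capn6-Wt, and log2 differences of 0.53 and 0.20. Both probes pointed the same way and lay no further apart than their spot error, and their mean was 0.37 ± 0.18, or 1.29-fold. Gmnn, which encodes the Cdt1 inhibitor geminin, had a signal of 934 in Capn6-Ko and 864 in Capn6-Wt, a difference of 0.13 ± 0.093. Cdt1 itself, the partner of Cdc6 in loading, was the 1 licensing gene that was lower, with 10352 in Capn6-Ko and 10795 in Capn6-Wt (-0.042 ± 0.083). The origin recognition subunit gene Orc6 stood at 0.059 ± 0.079. Orc1, the large subunit, was not well above background on either array (17.5 in Capn6-Ko, 15.3 in Capn6-Wt).

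The 6 genes of the Mcm2-7 ring were all higher in Capn6-Ko, from 0.021 for Mcm4 to 0.20 for Mcm6, with a median of 0.12. Mcm6 had signals of 11324 in Capn6-Ko and 9986 in Capn6-Wt, a difference of 0.20 ± 0.083 and the 1 subunit past 2 spot SDs. Mcm5 followed with 1183 in Capn6-Ko and 1079 in Capn6-Wt (0.15 ± 0.079). Mcm4 was level, with 2831 in Capn6-Ko and 2826 in Capn6-Wt.

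All 6 helicase activation genes were higher in Capn6-Ko, by a median of 0.17. Cdc45, which joins the ring to form the active helicase, had 57.6 in Capn6-Ko and 49.7 in Capn6-Wt (0.23 ± 0.17), a difference that was 0.054 with normexp. Gins2 had 407 in Capn6-Ko and 354 in Capn6-Wt (0.22 ± 0.12), and Mcm10, an initiation factor, had 517 in Capn6-Ko and 457 in Capn6-Wt (0.20 ± 0.093). The 4 GINS genes ran from 0.041 for Gins4 (1399 in Capn6-Ko, 1377 in Capn6-Wt; 0.14 with normexp) to 0.22 for Gins2. Of the 6, Mcm10 was the 1 past 2 spot SDs.

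Replication fork genes lay nearer to 0, with 13 of 18 higher in Capn6-Ko and a median of 0.047. The highest was Rpa2, a subunit of the single-strand binding protein RPA, with 364 in Capn6-Ko and 321 in Capn6-Wt (0.20 ± 0.12). Its partner Rpa1 was at 0.10 ± 0.083. Within the clamp loader RFC, Rfc4 (0.18 ± 0.070, from probes at 0.24 and 0.12) and Rfc5 (0.17 ± 0.079) were higher by more than 2 spot SDs, while Rfc1 (0.022), Rfc3 (0.032) and Rfc2 (-0.079 ± 0.074) were not. The clamp gene Pcna was level, with 24489 in Capn6-Ko and 24052 in Capn6-Wt (0.044 ± 0.083).

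The polymerase genes were near level. The 4 genes of polymerase alpha-primase, which lays down primers, ran from -0.082 for Pola1 to 0.0017 for Prim2, with 3 of 4 lower and all 4 within 1 spot SD of 0. The 4 members of polymerases delta and epsilon, which extend the primers, ran from 0.049 for Pold2 to 0.14 for Pole, and 3 of 4 lay within 1 spot SD of 0. Of the accessory subunit genes outside the members, Pold4 was at 0.047, Pold3 at -0.054, Pole3 at -0.060 and Pole4 at -0.016. A second Pole probe was not well above background on either array. The difference between these polymerases was not tested.

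Fen1 and Lig1, which finish Okazaki fragments by cutting the flap and sealing the nick, differed in opposite directions. Fen1 had 5558 in Capn6-Ko and 4983 in Capn6-Wt, a difference of 0.18 ± 0.074. Lig1 had 9257 in Capn6-Ko and 10906 in Capn6-Wt, a difference of -0.22 ± 0.083, the lowest of the 50 members. Both are bright, single-spot probes, and each difference was more than 2 spot SDs from 0.

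In nucleotide synthesis 3 of 5 genes were higher in Capn6-Ko, and the median was 0.013. Tyms, the thymidylate synthase, had 66.5 in Capn6-Ko and 52.0 in Capn6-Wt (0.37 ± 0.17, or 1.30-fold). The salvage kinase gene Tk1 had 1055 in Capn6-Ko and 982 in Capn6-Wt (0.12 ± 0.079). Ribonucleotide reductase, which makes deoxynucleotides, was level in both subunits. Rrm1 had 1466 in Capn6-Ko and 1508 in Capn6-Wt (-0.023), and Rrm2, the S-phase subunit, had 1647 in Capn6-Ko and 1713 in Capn6-Wt (-0.038 ± 0.079). The dUTPase gene Dut was at 0.013.

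Among the E2F members the activators E2f1 and E2f2 were level and the repressors E2f7 and E2f8 higher in Capn6-Ko; the difference between these pairs was not tested. E2f1 had 1813 in Capn6-Ko and 1821 in Capn6-Wt (0.012 ± 0.085), and E2f2 had 2841 in Capn6-Ko and 2843 in Capn6-Wt (0.017 ± 0.085). E2f8, an atypical E2F that represses the same targets later in S phase, had 487 in Capn6-Ko and 373 in Capn6-Wt, a difference of 0.40 ± 0.093 or 1.32-fold. Its partner E2f7 had 143 and 50.0 on its probes in Capn6-Ko, against 109 and 43.8 in Capn6-Wt, with a mean difference of 0.31 ± 0.18 that was 0.15 with normexp. The cyclin E gene Ccne1, the Cdk2 partner that starts S phase, was at 0.025 ± 0.17, with probes at 0.051 and -0.0019. Ccne2 was not well above background on either array, with signals of 2.81 in Capn6-Ko and 3.28 in Capn6-Wt. Of the E2F genes outside the members, E2f4 was at 0.11 ± 0.12, E2f6 at 0.0082, E2f3 at 0.0047 and E2f5 at -0.055 ± 0.17.

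**Figure D3:**
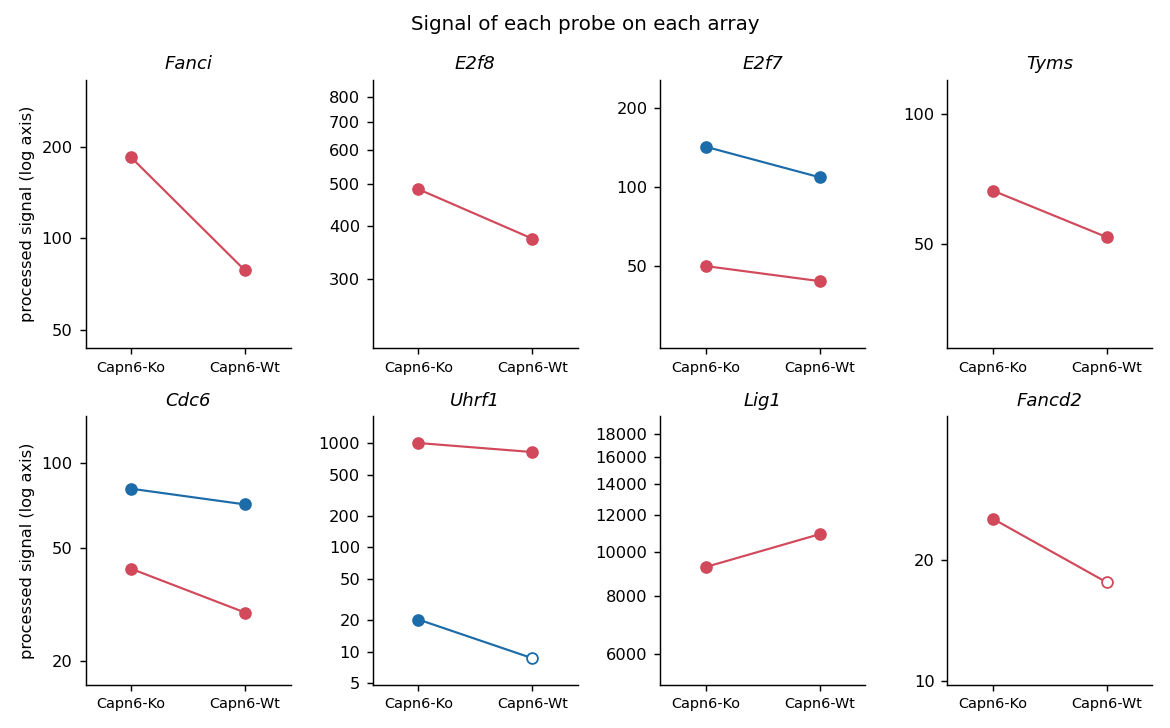
Processed signal (log axis) of each probe of 8 members, with Capn6-Ko left and Capn6-Wt right; a line joins the values of 1 probe, and an open point was not well above background. Probes of a gene slope the same way for E2f7 and Cdc6, the second Uhrf1 probe was not well above background in Capn6-Wt, and Lig1 is the 1 panel that is lower in Capn6-Ko.

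Of the 3 chromatin assembly genes, Uhrf1 alone was more than 2 spot SDs from 0, and the differences among them were not tested. Uhrf1, which brings the maintenance DNA methyltransferase to newly copied DNA, had 1007 in Capn6-Ko and 825 in Capn6-Wt (0.31 ± 0.079, or 1.24-fold). A second Uhrf1 probe was well above background in Capn6-Ko alone (20.3, against 8.64 in Capn6-Wt) and was at least 1.24-fold higher there. This bound uses 16.6, the dimmest Capn6-Wt signal still counted as well above background, although a Fancd2 spot at 17.6 was not so counted. The CAF-1 complex places histones on new DNA. Its subunit gene Chaf1a was lower, with 392 in Capn6-Ko and 442 in Capn6-Wt (-0.15 ± 0.12). Chaf1b was at 0.051 ± 0.058, and its probes, at 0.12 and -0.016, differed by more than their spot error.

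Replication-linked repair held the largest single difference. Fanci, a component of the complex that marks DNA crosslinks for repair, had a signal of 184 in Capn6-Ko and 78.3 in Capn6-Wt. The difference was 1.25 ± 0.17 or 2.39-fold, the second highest of all 12875 genes, and it rests on 1 probe with 1 spot per array. Fancd2, which encodes the other part of that complex, was well above background in Capn6-Ko alone, with 25.4 in Capn6-Ko and 17.6 in Capn6-Wt. The difference between these single dim spots was 0.55 ± 0.33, or 1.46-fold. Brca2, of homologous recombination repair, had 178 in Capn6-Ko and 158 in Capn6-Wt (0.19 ± 0.12). The exonuclease gene Exo1 was lower, with 192 in Capn6-Ko and 211 in Capn6-Wt (-0.12 ± 0.12). Brca1 was not well above background on either array (3.81 in Capn6-Ko, 7.16 in Capn6-Wt).

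Other genes of the pathway came from lists written with earlier results of these data known. Beside the counts of these lists, 47.8% of all measured genes were higher in Capn6-Ko. At 1.25-fold, 2.64% of all measured genes were higher and 5.53% lower. Of 32 measured genes among 33 of the remaining replication machinery, such as origin recognition subunits, Dbf4 and fork protection factors, 17 were higher, with a median of 0.0051. Mcm8, a helicase of recombination repair, was the 1 past 1.25-fold (0.39 ± 0.23), and Mcm9, its partner, the lowest (-0.23 ± 0.17). Of 32 measured among 33 further genes of S-phase nucleotides, chromatin and repair, 20 were higher, with a median of 0.044, and 2 passed 1.25-fold. Hells, a chromatin remodeller and 1 of these, had 74.1 in Capn6-Ko and 59.8 in Capn6-Wt (0.33 ± 0.17). Shmt1, of folate metabolism, was the lowest at -0.25 ± 0.23.

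The 26 measured of 30 genes of G2/M and mitosis had 23 higher, against 47.8% of all measured genes, and a median of 0.12. The member median was 0.063, and the difference between these lists was not tested. Kif23, a kinesin of cell division, had 206 in Capn6-Ko and 156 in Capn6-Wt (0.42 ± 0.12), and the topoisomerase gene Top2a had 364 in Capn6-Ko and 289 in Capn6-Wt (0.35 ± 0.12). Cdc20 was the lowest, at -0.063 ± 0.093. G1/S control genes, 28 measured of 30, had 17 higher, against 47.8% of all measured genes, and a median of 0.012. Of these 28, 1 was past 1.25-fold higher, against 2.64% of all genes, and 3 lower by that size, against 5.53%. The cyclin-dependent kinase gene Cdk6 was the highest (0.37 ± 0.33). Cyclin D2 (Ccnd2) had 428 in Capn6-Ko and 615 in Capn6-Wt (-0.51 ± 0.093). The kinase inhibitor gene Cdkn2b had 48.6 in Capn6-Ko and 69.6 in Capn6-Wt (-0.50 ± 0.17). Another inhibitor gene, Cdkn1c, had 31543 in Capn6-Ko and 41041 in Capn6-Wt (-0.36 ± 0.083), beside a median of -0.49 for the stromal fibroblast markers. The part of the stromal cells in these 3 lower genes was not tested.

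**Figure D4:**
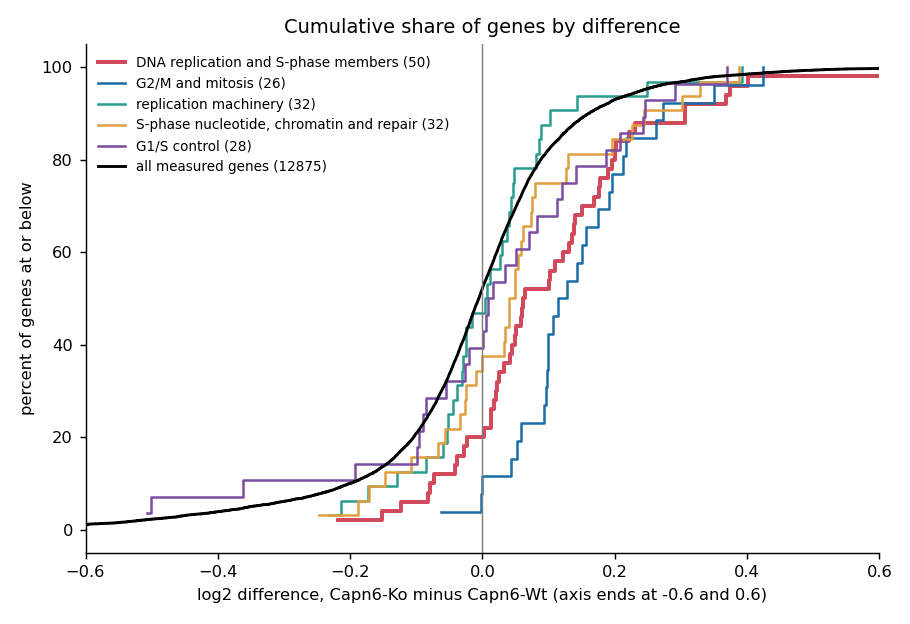
Cumulative percent of genes by log2 difference, Capn6-Ko minus Capn6-Wt, for the 50 measured members, 4 other lists of the cell cycle and all 12875 measured genes; the axis leaves out values beyond 0.6 in either direction. The members and the G2/M and mitosis genes lie to the right of all genes, while the remaining replication machinery lies close to them.

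**Figure D5:**
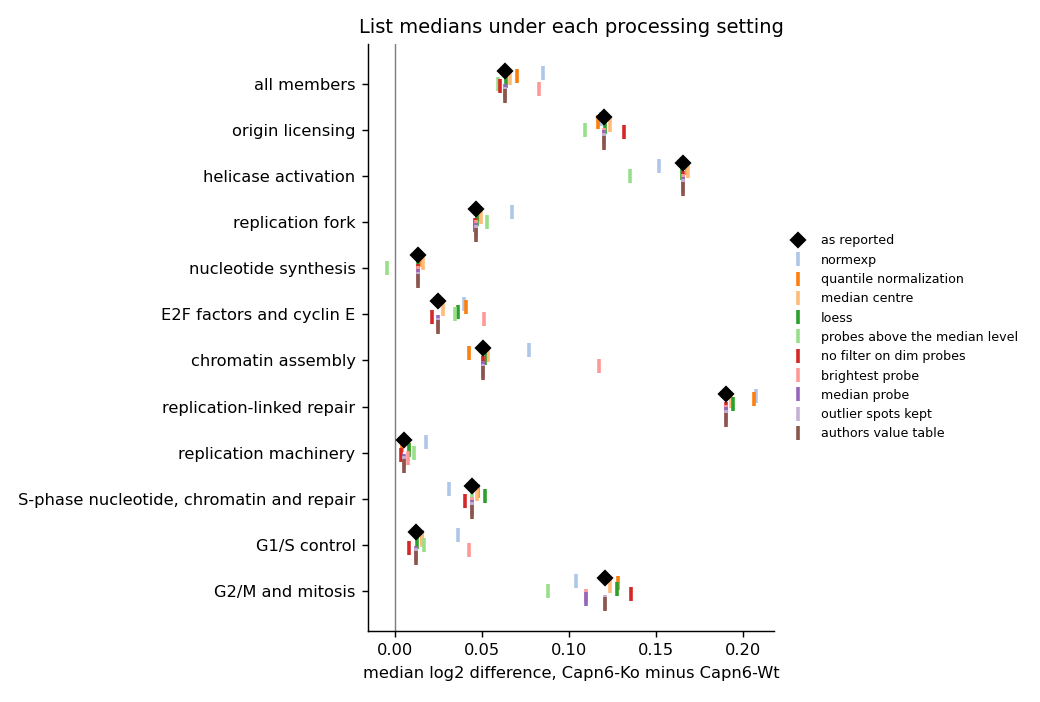
Median log2 difference, Capn6-Ko minus Capn6-Wt, of the members, their role groups and the other lists under the reported setting (black diamond) and 10 alternatives (ticks). The member median stays between 0.059 and 0.085, and nucleotide synthesis is the group whose ticks cross 0.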

How the data were processed

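Each genotype was 1 single-colour Agilent array. The authors deposited scanner output with 1 linear intensity per spot, background-subtracted within its array. It came from Agilent Feature Extraction (version 10.10.1.1, per the file headers), which the submitters' processing notes also name. The array grid was annotated on mm9. Both arrays came from the same scan, per the file headers, so scan and slide did not differ between groups. The authors' value table is the same intensity times 1 constant per array (2.42 for Capn6-Ko, 2.39 for Capn6-Wt), with column medians of 50.7 and 53.0, so its scale is linear and it is not centred.

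From the deposited intensities, the 75th percentile of each array was subtracted from the processed signal on the log2 scale. Control spots and outlier spots (136 on Capn6-Ko, 161 on Capn6-Wt) were left out, and 0 spots were saturated. Spots of a probe were averaged, and a gene is the mean over its probes with more than 50% of spots well above background on both arrays. Probes of different genes were not set against each other. Accessions were named through a RefSeq table of GRCm38.p6, which matched 27232 of 55678 probes. The spot SD came from 263 measured probes with at least 5 spots per array, in 8 bins of level.

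The members and lists were chosen with earlier results of these data known. Every member is named or counted; values are given for members past 1.25-fold, the extremes of each group, members not measured on both arrays, members with conflicting probes, and some members that share a complex. Some genes of the other lists are not reported here. The count of members past 2 spot SDs was added after their values were seen. The scripts were tested on simulated data. Software was Python 3.11.15 (pandas 2.3.3, numpy 2.4.6) and, for normalization, limma 3.58.1 under R 4.3.3. The alternatives were normexp (offset 50), quantile, median and loess normalization, other filters, other gene summaries and the authors' table. The deposited files used here hold no mean spot signal, so normexp used the median spot signal.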

Additional observations from a re-analysis of the deposited data

How the results depend on the processing

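The direction of the list held in all 10 alternatives. Among the 39 to 54 members measured, 31 to 42 were higher and 8 to 12 lower, with a median of 0.059 to 0.085. For the members, the authors' table and the median probe had to give the reported values, so they are no check. That table differs by 1 constant per array, and no member has more than 2 probes. Keeping outlier spots left the member counts and median unchanged too. The counts of values below include these alternatives. The median was 0.085 after normexp and 0.083 with the brightest probe of each gene, each further from the reported value than its spot SD of 0.019. The number of members at least 1.25-fold higher, 4, was 1 after normexp (Fanci, at 0.74, below 2-fold) or when only probes above the median level of probes were used (E2f8), and 0 members were then at least 2-fold higher. With no filter on dim probes 1 member was at least 1.25-fold lower. With the brightest probe the median of chromatin assembly was 0.12 and that of G1/S control 0.042. With probes above the median level, the median of G2/M and mitosis was 0.088. The other 159 of 169 summary values stayed within their spot SD or within 1.5 times their count. Of 489 values of single members 481 moved by less than their spot SD and 0 past 1.25-fold changed sign; 6 of the 8 that moved did so after normexp. No paired analysis was possible because each genotype is 1 array. With so few arrays no value has a known precision between cultures, and genes near background rest on single dim spots.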
